A study of Mus musculus with 16 samples.

Results

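Chemokines are small secreted proteins that draw leukocytes along gradients through G protein-coupled receptors. Activated CD8 T cells release several of them: Ccl3, Ccl4 and Ccl5 act on monocytes, dendritic cells and other T cells, with Ccr1 among the receptors of Ccl3 and Ccr3 among those of Ccl5; Xcl1 acts on cross-presenting dendritic cells through Xcr1; Ccl1 is the ligand of Ccr8; and Ccl9, a mouse chemokine, is a ligand of Ccr1. The transcripts of these 6 genes (Ccl1, Ccl3, Ccl4, Ccl5, Ccl9 and Xcl1) were followed here in CD8 cells sorted from tumours. They were chosen by gene symbol, each symbol had a single row among the 24028 genes of the count table, and all 6 passed the filter on low counts that left 17414 genes for testing.

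The mice were BALB/c animals carrying TS/A, a mammary adenocarcinoma line, in the second mammary pad. Entinostat (ENT), an inhibitor of class I histone deacetylases, or its vehicle was given daily from day 7 after injection of the tumour cells, entinostat at 20 mg/kg. Live CD45.2+ CD8+ CD4- cells were taken at day 17, after 10 days of dosing, or at day 10, after 3 days, and full-length cDNA was amplified from their RNA. There were 4 libraries in each of the groups entinostat day 17, vehicle day 17, entinostat day 10 and vehicle day 10. Whether each library of a group was made from its own mouse is not stated in the labels, so the spread behind the p-values is that between these libraries and may be partly technical. The gate did not include CD3.

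At day 17, library totals were 554593 to 3530961 counts with entinostat and 2842099 to 6975904 with vehicle. At day 10 they were 2639019 to 5709243 counts with entinostat and 3640768 to 4227704 with vehicle. The library of 554593 counts, entinostat day 17 replicate 3, stands apart, and without it the lowest total was 2585561. Counts of very abundant transcripts did not follow these totals: Actb ranged only from 1618 to 3265 counts while the totals spanned 12.6-fold. T cell markers were present in every library (7 of 7, summed level 1767 to 2933 CPM with entinostat and 1654 to 1948 CPM with vehicle at day 17; CPM is the count scaled to a common library total, with TMM factors). Markers of other cells were present too. Plasmacytoid dendritic cell markers summed to 562 to 699 CPM with entinostat and 2099 to 2691 CPM with vehicle at day 17, and to 478 to 834 CPM with entinostat and 1211 to 2441 CPM with vehicle at day 10, with 8 of 9 lower under entinostat on both days. Changes are given relative to TMM scaling, under which the median log2 fold change of all tested genes under entinostat was -0.01 at day 17 and 0.06 at day 10. With the summed counts of the T cell markers as library size these medians became -0.28 and 0.23, and the share of called genes that were higher was 12.8% (28.9% with TMM) at day 17 and 84.9% (52.4% with TMM) at day 10. With library size alone the medians were 0.14 and 0.22, and the shares 48.2% and 76%; with RLE size factors the share at day 17 was 40.7%.

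The genes of Ccl9 and Ccl3, the members with the largest increases under entinostat at day 17, lie in the CC chemokine cluster of chromosome 11 on the minus strand (GRCm38: Ccl9 at chr11:83572919-83578636, Ccl3 at chr11:83647844-83649355). Their promoters are shown as the 250 bases before the transcript start, with that of Xcl1 (gene at chr1:164931644-164935527, minus strand), whose transcript did not pass the test, for comparison, and that of Ccl1, which passed only at day 10. Sequences are from RefSeq for GRCm38.p6, which supplied 4 of the 6 members, and are written 5′ to 3′ on the gene's strand with matches to the motifs named below them in capitals.
Ccl9 chr11:83578637-83578886: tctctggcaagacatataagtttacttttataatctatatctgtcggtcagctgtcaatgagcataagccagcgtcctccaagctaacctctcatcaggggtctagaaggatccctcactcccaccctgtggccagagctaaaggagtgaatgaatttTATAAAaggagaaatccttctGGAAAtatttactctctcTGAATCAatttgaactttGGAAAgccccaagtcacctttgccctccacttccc
Ccl3 chr11:83649379-83649628: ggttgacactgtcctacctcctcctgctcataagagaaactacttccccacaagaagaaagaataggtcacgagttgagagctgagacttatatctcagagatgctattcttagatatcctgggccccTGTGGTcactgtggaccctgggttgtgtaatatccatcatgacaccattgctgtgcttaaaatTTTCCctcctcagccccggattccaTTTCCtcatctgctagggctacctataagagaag
Xcl1 chr1:164935523-164935772: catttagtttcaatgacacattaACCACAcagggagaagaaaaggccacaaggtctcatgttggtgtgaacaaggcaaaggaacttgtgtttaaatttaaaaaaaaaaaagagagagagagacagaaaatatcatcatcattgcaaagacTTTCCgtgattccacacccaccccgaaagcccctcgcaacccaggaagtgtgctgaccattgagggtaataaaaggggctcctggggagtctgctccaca
Ccl1 chr11:82179813-82180062: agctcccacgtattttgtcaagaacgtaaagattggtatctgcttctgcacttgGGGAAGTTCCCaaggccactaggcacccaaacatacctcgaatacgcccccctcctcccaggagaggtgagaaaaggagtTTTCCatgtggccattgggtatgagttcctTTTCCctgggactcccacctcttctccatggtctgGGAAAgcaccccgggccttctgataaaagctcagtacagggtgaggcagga
The letters TATAAA, the core of a promoter box, were searched on the gene's strand. On both strands the search took GGAAA as the core of NFAT sites, TGANTCA as the AP-1 motif, TGTGGT as the Runx motif and, for NF-kappaB, GGGA and TTCC with any 2 bases between them. Only exact letters were counted, so near matches to the promoter box in any window were missed. The Ccl9 window held the letters of the promoter box 1 time, at base -92 relative to the transcript start. Whether they act as such a box was not tested. It also held the NFAT core 2 times and the AP-1 motif 1 time. In the Ccl3 window the NFAT core occurred 2 times and the Runx motif 1 time, and in the Xcl1 window each of these occurred 1 time. The Ccl1 window held the NFAT core 3 times and the NF-kappaB motif 2 times, once on each strand over nearly the same bases. No other matches overlapped. Of 32851 windows of the same length, 7.59% held the promoter box, 55.6% the NFAT core, 6.75% the AP-1 motif, 14% the Runx motif and 1.21% the NF-kappaB motif. These matches are letters in a window and were not tied to any measurement.

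At day 17, 4 of the 6 chemokines were higher in entinostat than in vehicle libraries: Ccl9, Ccl3, Ccl4 and Ccl5. Xcl1 and Ccl1 did not pass the test, and none was lower. Over all tested genes, 5.29% were called higher and 13% lower in this comparison (edgeR quasi-likelihood test, Benjamini-Hochberg adjusted p under 0.05). The median log2 fold change of the 6 was 0.72, against -0.01 for all tested genes. As the 6 were chosen with earlier results of these data known, these comparisons with all genes are description only. Library values did not overlap between treatments for 3 of the 6 (Ccl9, Ccl3 and Ccl5), as was so for 24.4% of all tested genes.

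**Figure D1:**
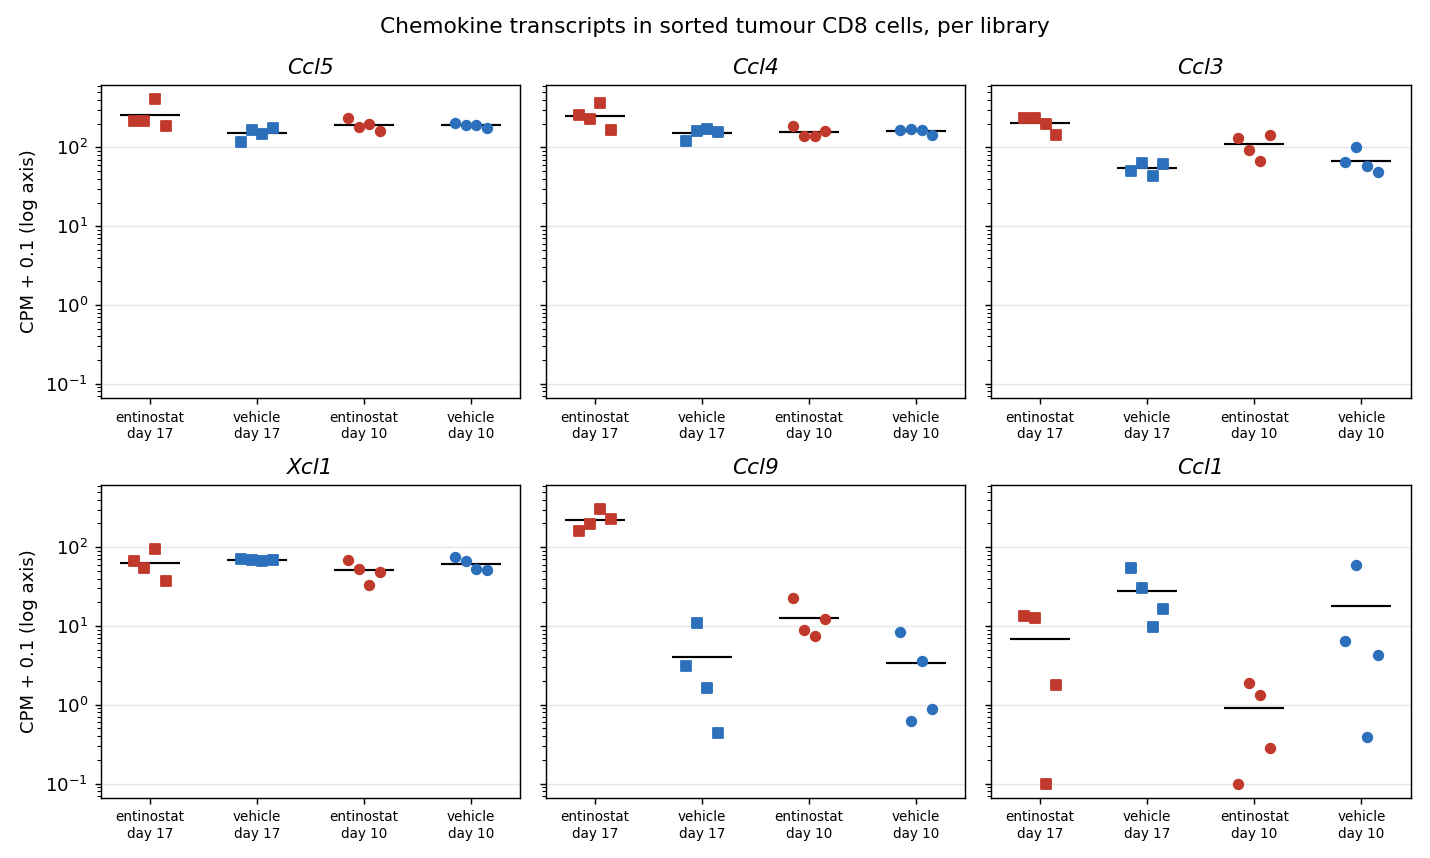
CPM plus 0.1 (log axis) of each chemokine in every library, entinostat in red and vehicle in blue, squares for day 17 and circles for day 10, with a bar at the group mean of 4 libraries. Ccl9 sits at 161 to 305 CPM with entinostat at day 17, above every other library, while Xcl1 sits within 33.0 to 94.6 CPM throughout.

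Ccl9 showed the largest difference of the 6. It measured 161, 196, 305 and 228 CPM in the entinostat day 17 libraries, against 3.01, 10.9, 1.54 and 0.343 CPM in the vehicle day 17 libraries. Every entinostat library was thus far above every vehicle library. The log2 fold change was 5.78 ± 0.62 (SE, n = 4 each, edgeR adjusted p = 6.78e-06), a fold of 54.9. In counts, the vehicle values rest on only 1 to 41 reads per library and the entinostat values on 184 to 729. Without vehicle day 17 replicate 2, the library at 10.9 CPM, the log2 fold change was 6.86, and it lay between 5.40 and 6.86 and stayed past the threshold under all 28 alternatives of processing.

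Ccl3, a ligand of Ccr1 that activated CD8 T cells secrete, measured 240, 236, 201 and 143 CPM with entinostat at day 17, against 49.9, 63.5, 43.5 and 60.7 CPM with vehicle. The 2 sets of libraries did not overlap. The log2 fold change was 1.92 ± 0.25 (SE, edgeR adjusted p = 4.05e-05), a fold of 3.78, and it lay between 1.62 and 2.22, past the threshold, under all 28 alternatives.

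The increases of Ccl4 and Ccl5 were smaller. Ccl4, a close relative of Ccl3, measured 255, 232, 362 and 166 CPM with entinostat at day 17, against 120, 163, 170 and 155 CPM with vehicle. The lowest entinostat library, replicate 4, fell below the highest vehicle library. On the log2 scale Ccl4 was higher by 0.71 ± 0.17 (SE; edgeR adjusted p = 0.00888). Ccl5, which effector and memory CD8 T cells express at high level, measured 217, 216, 410 and 185 CPM with entinostat, against 118, 165, 147 and 175 CPM with vehicle, a difference of 0.72 ± 0.19 on the log2 scale (SE; edgeR adjusted p = 0.0149). For Ccl5 the groups stood apart by a narrow margin, 185 CPM in the lowest entinostat and 175 CPM in the highest vehicle library.

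Both of these smaller increases moved with the library totals. Replicate 3 of entinostat day 17, the shallowest library, had the highest CPM of Ccl4 and Ccl5 of all 16 libraries although it held the fewest counts of them, 218 of Ccl4 and 247 of Ccl5. Counts of Ccl5 spanned 3.66-fold over the 16 libraries, against 12.6-fold for the totals. With the library total as a covariate, an alternative added after the data were seen, the log2 fold change was 0.42 (adjusted p = 0.104) for Ccl4 and 0.27 (adjusted p = 0.0925) for Ccl5, neither past the threshold. Without replicate 3 they were 0.55 (adjusted p = 0.0237) and 0.48 (adjusted p = 0.0336). The T cell markers Cd8a and Cd3e had log2 fold changes of 0.24 and 0.33 at day 17. With edgeR 0 of 7 T cell markers passed, while 5 had an unadjusted p under 0.05, DESeq2 called 6 higher and limma-voom called 0. With the T cell markers as library size Ccl4 was 0.39 (adjusted p = 0.0360) and Ccl5 0.41 (adjusted p = 0.0301) higher on the log2 scale, against a median of -0.28 over all genes.

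**Figure D2:**
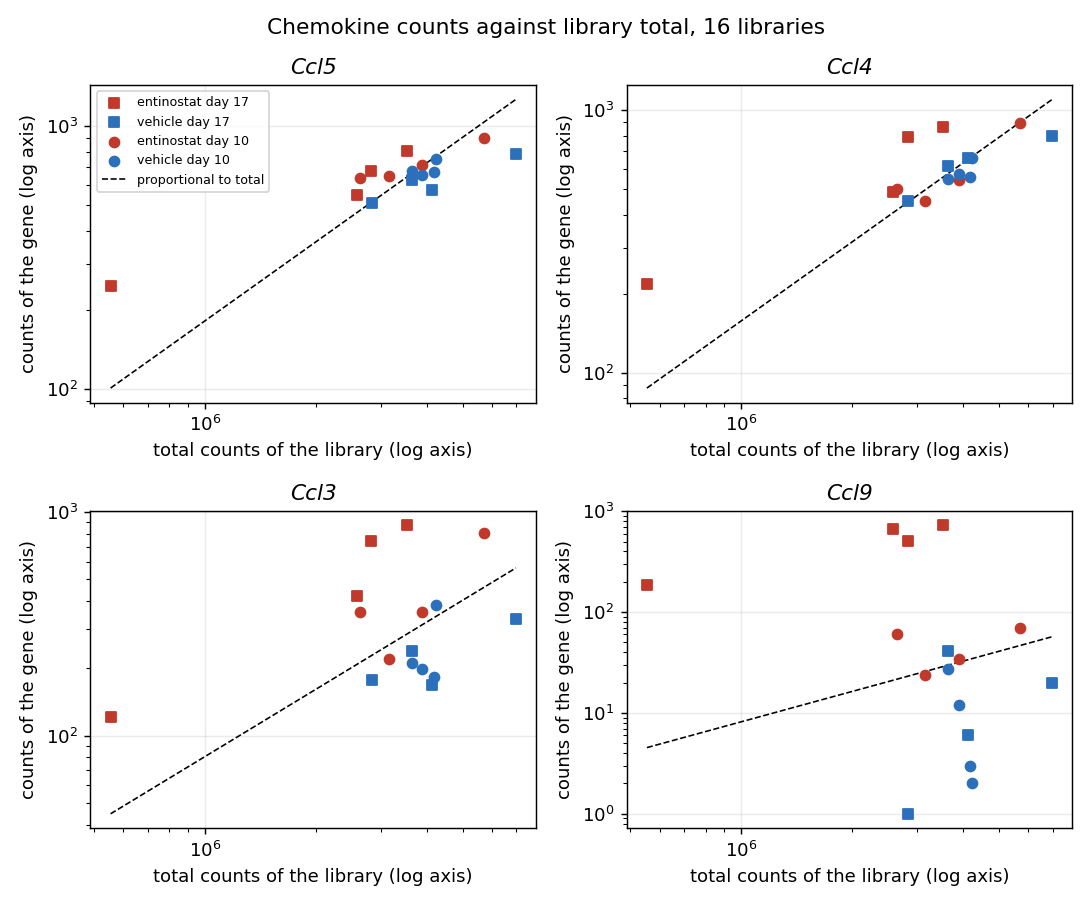
Counts of Ccl5, Ccl4, Ccl3 and Ccl9 against the total count of each of the 16 libraries (both axes log), entinostat in red and vehicle in blue, squares for day 17 and circles for day 10; the dashed line is proportional to the total at the median ratio. Counts of Ccl5 run from 247 to 903, flatter than the line, while the 4 entinostat day 17 points of Ccl9 lie at 184 to 729 counts, far above it.

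Xcl1, the ligand of Xcr1, did not pass the test at day 17. Its levels were 66.9, 54.1, 94.6 and 36.6 CPM with entinostat, against 70.3, 68.6, 67.4 and 68.9 CPM with vehicle. The only entinostat value above those of vehicle, 94.6 CPM, was that of replicate 3, the shallowest library. The other entinostat libraries lay below every vehicle library. The log2 fold change was -0.19 ± 0.24 (SE, edgeR adjusted p = 0.612) with a 95% confidence interval of -0.69 to 0.31. Part of the Xcl1 exons (51 of 474 stretches of 50 bases) is shared with Gm20743, a gene on the opposite strand, and the libraries do not mark strand.

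Ccl1, the ligand of Ccr8, was sparse and uneven. At day 17 it measured 13.2, 12.4, 0 and 1.70 CPM with entinostat, against 55.1, 30.4, 9.52 and 16.1 CPM with vehicle. Entinostat libraries were the lower ones, but the groups overlapped. The log2 fold change was -1.88 ± 1.05 (SE, edgeR adjusted p = 0.218), with an interval of -4.07 to 0.32.

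Set against Ccl5 within each library, which takes out the scaling factors between libraries, the members did not all keep the same ratio in both treatments at day 17. Per 100 counts of Ccl5 there were 74.4 to 123 counts of Ccl9 with entinostat and 0.196 to 6.58 with vehicle, and 49.0 to 110 counts of Ccl3 with entinostat and 29.6 to 42.5 with vehicle. Ccl4 kept to the same range as Ccl5, with 88.3 to 118 counts with entinostat and 88.8 to 116 with vehicle. Xcl1 stood lower, at 19.8 to 30.8 counts with entinostat and 39.4 to 59.7 with vehicle, with no overlap. Depth was not taken out. Over the 16 libraries counts of Ccl5 spanned 3.66-fold and those of Xcl1 8.19-fold, against 12.6-fold for the totals. Within vehicle day 17, Xcl1 stood at 59.7 in the library of 6975904 counts and at 39.4 in that of 2842099 counts. The part of depth in these ratios was not tested, and they do not show which of the members changed.

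Levels can be compared between genes only per length of transcript. Per kilobase of the principal transcript, the mean order with entinostat at day 17 was Ccl5 (483 ± 193 CPM per kb, SD, n = 4), Ccl4 (384 ± 123), Ccl3 (267 ± 58.0), Xcl1 (121 ± 46.6), Ccl9 (74.1 ± 20.4) and Ccl1 (13.3 ± 13.5). With vehicle at day 17 it was Ccl5 (284 ± 47.3), Ccl4 (230 ± 33.8), Xcl1 (132 ± 2.23), Ccl3 (71.0 ± 12.2), Ccl1 (54.1 ± 39.2) and Ccl9 (1.31 ± 1.58). Library ranges of neighbours in this order overlapped for Ccl5 and Ccl4, Ccl4 and Ccl3, and Xcl1 and Ccl9 with entinostat, and for Ccl5 and Ccl4, and Ccl3 and Ccl1 with vehicle. Ccl9 has a transcript of 3006 bases, several times that of the other members (514 to 766 bases), so its high CPM at day 17 overstates its rank among them. Of its exons, 59 of 2996 stretches of 50 bases also occur in exons of other genes, 463 of them. In these bulk libraries more transcript per cell and more cells with the transcript cannot be told apart.

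The make-up of the chemokine pool, taken on the same per-kilobase scale, differed between treatments for some members. Per kilobase the 6 transcripts summed to 936 to 1862 CPM in the entinostat day 17 libraries and 710 to 833.5 CPM in the vehicle day 17 libraries. The share of Ccl9 in this sum was 5.70% ± 1.70 with entinostat and 0.164% ± 0.187 with vehicle (mean of libraries and SD, n = 4), and that of Ccl3 20.6% ± 4.76 with entinostat and 9.16% ± 1.03 with vehicle. Xcl1 made up 8.79% ± 1.12 with entinostat and 17.1% ± 1.40 with vehicle, and Ccl1 1.05% ± 1.02 with entinostat and 7.15% ± 5.63 with vehicle. Shares of Ccl9, Ccl3, Xcl1 and Ccl1 did not overlap between treatments, for which no share over all genes was computed. As parts of one sum, shares of some members fall when other members rise. In CPM, Xcl1 and Ccl1 overlapped between treatments at day 17. Neither passed the test there (edgeR adjusted p = 0.612 for Xcl1 and 0.218 for Ccl1). The shares of Ccl5, 35.5% ± 4.73 with entinostat and 36.62% ± 3.999 with vehicle, and of Ccl4, 28.4% ± 1.25 with entinostat and 29.8% ± 3.85 with vehicle, overlapped between treatments. At day 10 Ccl9 was 0.478% ± 0.172 of the sum with entinostat and 0.128% ± 0.135 with vehicle.

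At day 10, after 3 days of dosing, only Ccl1 passed the test, and it was lower with entinostat; over all tested genes 7.63% were called higher and 6.93% lower, 2534 genes in all, against 1160 in the fit with equal replicate numbers as pairs. The median log2 fold change of the 6 was -0.02, against 0.06 for all tested genes. No member had libraries without overlap between treatments, as 20.2% of all tested genes did.

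Ccl1 at day 10 measured 0, 1.80, 1.23 and 0.179 CPM with entinostat, against 6.42, 59.9, 0.293 and 4.18 CPM with vehicle. The entinostat values rest on 0 to 7 counts per library and the vehicle values on 1 to 231. With only the day 10 groups fitted, Ccl1 did not pass the filter on low counts, so the day 17 libraries brought it into this test. One vehicle library, replicate 2, carried most of the group's counts, and another, replicate 3, lay within the entinostat range. The log2 fold change was -4.41 ± 1.25 (SE, edgeR adjusted p = 0.0289). Without vehicle replicate 2 it was -2.10 (adjusted p = 0.221). The threshold was also missed when replicate 1 (-4.09, adjusted p = 0.0799) or replicate 3 (-4.66, adjusted p = 0.0723) of entinostat day 10 was left out, with equal replicate numbers as pairs (-3.62, adjusted p = 0.0564), with limma-voom and quality weights (-2.48, adjusted p = 0.232) or cyclic loess (-4.10, adjusted p = 0.305), and with reads in olfactory and vomeronasal receptor genes as a covariate (-3.08, adjusted p = 0.178). Those reads, from genes of sensory receptors, were mostly higher with entinostat, with overlap on both days: at day 10 they measured 5726, 3367, 5179 and 586 CPM with entinostat, against 1723, 582, 1584 and 1866 CPM with vehicle, and at day 17 they measured 4922, 3632, 6920 and 5522 CPM with entinostat, against 636, 4371, 2877 and 5293 CPM with vehicle. Their part in the chemokine values was not tested beyond this covariate.

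Ccl9 and Ccl3 were close to the threshold at day 10. Ccl9 measured 22.3, 8.75, 7.40 and 12.3 CPM with entinostat, against 8.25, 0.518, 3.52 and 0.784 CPM with vehicle, and of the 16 possible pairs of an entinostat with a vehicle library 15 had the higher value with entinostat. Its log2 fold change was 1.98 ± 0.66 (SE, edgeR adjusted p = 0.0517), and it passed under 7 of 28 alternatives. With equal replicate numbers as pairs it was 2.16 (edgeR adjusted p = 0.0557). Without vehicle day 10 replicate 1, the vehicle library at 8.25 CPM, it was 3.02 (adjusted p = 0.0283). Ccl3 measured 133, 91.9, 68.1 and 144 CPM with entinostat, against 64.8, 100, 58.3 and 48.1 CPM with vehicle, with overlapping groups. Its log2 fold change was 0.69 ± 0.24 (SE, edgeR adjusted p = 0.0606), and it passed under 8 of 28 alternatives, DESeq2 among them (0.74, adjusted p = 0.0236). With the pairs it was 0.68 (edgeR adjusted p = 0.106).

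The other members did not pass at day 10. Ccl5 averaged 195 ± 31.5 CPM with entinostat and 192 ± 12.9 CPM with vehicle (SD, n = 4), a log2 fold change of 0.02 with a 95% confidence interval of -0.37 to 0.42. Ccl4 averaged 156 ± 22.4 CPM with entinostat and 163 ± 11.95 CPM with vehicle, a log2 fold change of -0.06 with an interval of -0.42 to 0.30. Xcl1 averaged 50.6 ± 14.9 CPM with entinostat and 61.8 ± 11.5 CPM with vehicle, a log2 fold change of -0.29 with an interval of -0.78 to 0.20.

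**Figure D3:**
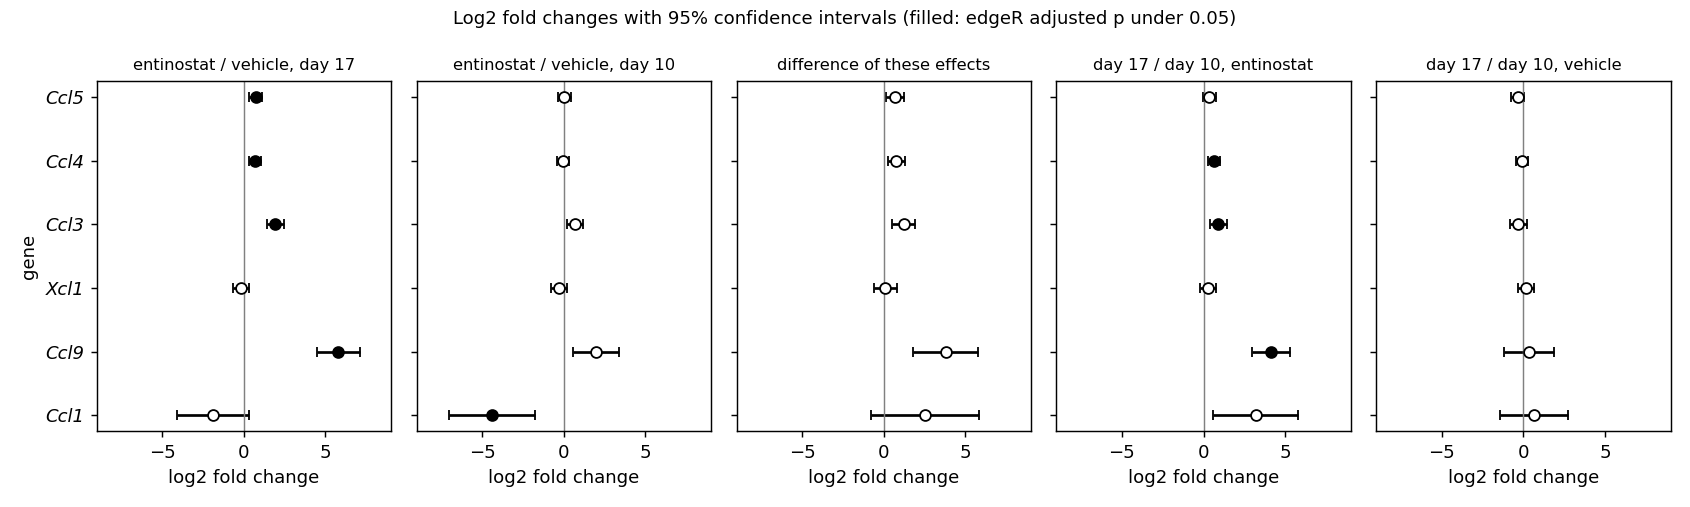
Log2 fold changes of the 6 chemokines in 5 comparisons, with 95% confidence intervals of edgeR and filled points where the adjusted p is under 0.05. Ccl9, Ccl3, Ccl4 and Ccl5 are filled for entinostat over vehicle at day 17, Ccl1 alone at day 10, and none in the difference of these effects or in vehicle over time.

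Whether the entinostat effect differed between days was tested directly as day 17 minus day 10. No member passed with edgeR, where 0.471% of all tested genes did; 4 had an unadjusted p under 0.05 (Ccl3, Ccl4, Ccl5 and Ccl9), limma-voom called 0, and DESeq2 called 3. The difference was 3.80 ± 0.94 on the log2 scale for Ccl9 (SE, edgeR adjusted p = 0.0810; DESeq2 adjusted p = 0.0288), 1.23 ± 0.34 for Ccl3 (edgeR adjusted p = 0.119; DESeq2 adjusted p = 0.0117) and 0.77 ± 0.24 for Ccl4 (edgeR adjusted p = 0.169; DESeq2 adjusted p = 0.0386). It was 0.70 ± 0.27 for Ccl5 (edgeR adjusted p = 0.269), 2.53 ± 1.58 for Ccl1 and 0.10 ± 0.33 for Xcl1. Without vehicle day 10 replicate 2 the Ccl1 difference was 0.22, and 1 library left out at a time gave 0.22 to 3.31. With TMM the median of the 6 was 1.00, against -0.20 for all tested genes. With the T cell markers as library size the median of all tested genes was -0.64. Member estimates moved with that scale too, Xcl1 to -0.38, and the median of the 6 on it was not computed. Without vehicle day 17 replicate 2 the Ccl9 difference was 4.84 and passed with edgeR (adjusted p = 0.0277).

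Within the entinostat groups, 3 of the 6 were higher at day 17 than at day 10, Ccl9, Ccl3 and Ccl4, and none was lower; over all tested genes 3.26% were called higher and 10.5% lower, so that 23.7% of the calls were higher with TMM, against 43.3% with library size alone and 13.4% with the T cell markers as library size. Ccl9 was 4.14 ± 0.56 higher on the log2 scale (SE, edgeR adjusted p = 1.00e-04), a fold of 17.6, and it was the only member whose libraries at the 2 days did not overlap, as 21.5% of all tested genes did not. Ccl3 was 0.91 ± 0.24 higher (adjusted p = 0.0160) and Ccl4 0.67 ± 0.17 higher (adjusted p = 0.0152). Cd8a also rose in this comparison, by 0.40 on the log2 scale (adjusted p = 0.0460), a call that was lost without any 1 of 15 libraries and with the pairs (0.38, adjusted p = 0.0846), and with the T cell markers as library size Ccl3 no longer passed (0.72, adjusted p = 0.0544). Ccl3 missed the threshold when replicate 2 of entinostat day 10 was left out (0.79, adjusted p = 0.0685), or replicate 1 (0.79, adjusted p = 0.0700) or 2 (0.81, adjusted p = 0.0521) of entinostat day 17. Ccl4 missed it without replicate 2 of entinostat day 10 (0.58, adjusted p = 0.0577) or replicate 3 of entinostat day 17 (0.47, adjusted p = 0.0539), and with the library total as a covariate (0.42, adjusted p = 0.0951). For Ccl1 the log2 fold change was 3.19 ± 1.25 (adjusted p = 0.102), for Ccl5 0.35 ± 0.19 (adjusted p = 0.253) and for Xcl1 0.26 ± 0.24 (adjusted p = 0.540).

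In the vehicle groups no member differed between day 17 and day 10 with edgeR, where 5.52% of all tested genes were called, 1.89% higher and 3.63% lower (34.2% of the calls higher, against 59.4% with library size alone and 95.3% with the T cell markers as library size); 0 had an unadjusted p under 0.05, and DESeq2 and limma-voom called 0. The log2 fold changes ran from -0.35 (Ccl5) to 0.65 (Ccl1); that of Ccl1 was 2.93 when replicate 2 of vehicle day 10 was left out and 0.041 when replicate 1 of vehicle day 17 was, and that of Ccl9, 0.34, was 1.33 when replicate 1 of vehicle day 10 was left out and -0.73 when replicate 2 of vehicle day 17 was. No member had libraries without overlap, as 13.6% of all tested genes did. Ccl5, at 151 ± 25.1 CPM at day 17 and 192 ± 12.9 CPM at day 10 (SD, n = 4), was called lower with the library total as a covariate (-0.33, adjusted p = 0.0198).

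Markers of other leukocytes that can make these chemokines moved with treatment too, in part. The 5 neutrophil markers summed to 39.9 to 45.0 CPM with entinostat and 2.11 to 30.6 CPM with vehicle at day 17, where edgeR called 0 of 5 (1 at an unadjusted p under 0.05, 1 with DESeq2 and 1 with limma-voom), and to 11.2 to 90.8 CPM with entinostat and 2.05 to 3.92 CPM with vehicle at day 10, where 4 of 5 were higher. Ccl9 in the same entinostat libraries was 161 to 305 CPM at day 17 and 7.40 to 22.3 CPM at day 10. The 10 monocyte and macrophage markers summed to 51.4 to 74.3 CPM with entinostat and 148 to 233 CPM with vehicle at day 17 (2 of 6 tested lower), and to 51.5 to 94.0 CPM with entinostat and 72.1 to 143 CPM with vehicle at day 10 (1 higher, 1 lower). Of these, Cd68, a lysosomal protein of macrophages and plasmacytoid dendritic cells, alone gave 18.0 ± 7.28 CPM with entinostat and 117 ± 8.55 CPM with vehicle at day 17 (SD, n = 4). The 4 natural killer cell markers summed to 4.98 to 9.84 CPM with entinostat and 3.77 to 15.4 CPM with vehicle at day 17. These sums rest on Ncr1, at 3.55 CPM with entinostat and 3.93 CPM with vehicle on average, and Klrb1c, at 4.02 CPM with entinostat and 4.41 CPM with vehicle. The others, Klra4 and Klra8, had almost no counts. Whether this mouse strain carries them was not checked, so their absence does not show how many natural killer cells were present. The 8 conventional dendritic cell markers summed to 315 to 348 CPM with entinostat and 794 to 1304 CPM with vehicle at day 17 (4 of 8 lower), and the 5 mast cell and basophil markers to 69.8 to 88.2 CPM with entinostat and 62.1 to 167 CPM with vehicle (1 of 4 tested lower). The lower one was Kit, the receptor of stem cell factor, at 38.8 CPM with entinostat and 94.9 CPM with vehicle on average, and it held most of the sum. The other 4 had higher means with entinostat, without passing where tested: Ms4a2 21.4 CPM with entinostat and 6.70 CPM with vehicle, Cpa3 6.95 CPM with entinostat and 4.26 CPM with vehicle, Fcer1a 6.56 CPM with entinostat and 5.60 CPM with vehicle, and Mcpt8, too sparse to test, 5.70 CPM with entinostat and 0.44 CPM with vehicle. At day 10 the sum was 22.2 to 75.5 CPM with entinostat and 32.7 to 45.1 CPM with vehicle, and 1 of 4 tested was higher, Fcer1a (2.61 ± 0.85 on the log2 scale, edgeR adjusted p = 0.0470). The 3 CD4 T cell markers (Cd4, Foxp3 and Cd40lg) summed to 26.5 to 115 CPM with entinostat and 110 to 162 CPM with vehicle at day 17. There edgeR called 2 of 3 lower. At day 10 they summed to 65.1 to 118 CPM with entinostat and 98.7 to 163 CPM with vehicle (1 of 3 lower). The part of these other cells in the chemokine levels was not tested.

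In the chromosome 11 cluster, no tested gene besides the members passed as higher at day 17. Some estimates were still larger than those of Ccl4 and Ccl5. Ccl5, Ccl9, Ccl3 and Ccl4 lie within 138.906 kb of chromosome 11 (GRCm38), with Ccl4 at chr11:83662584-83664683 on the plus strand and Ccl5 at chr11:83525778-83530518 on the minus strand. Ccl1 lies 1.35 Mb away on the same chromosome, and Xcl1 on chromosome 1. The count table held 10 genes from 50 kb before Ccl5 to 50 kb after Ccl4, and 9 were tested. At day 17 the 4 called higher were the 4 members, and 1 was lower: Wfdc17, at -2.87 ± 0.85 on the log2 scale (SE, edgeR adjusted p = 0.0256), a call lost without entinostat day 17 replicate 1 (-2.66), 2 (-2.51) or 3 (-2.80) or vehicle day 17 replicate 3 (-2.44), or with the library total as a covariate (-2.56, adjusted p = 0.137). Ccl6, a chemokine of the same cluster that lies between Ccl9 and Ccl3, was 1.85 ± 0.77 (adjusted p = 0.102) at day 17. The unnamed transcript E230016K23Rik was 1.48 ± 0.68 (adjusted p = 0.138). Both estimates were above those of Ccl4 (0.71) and Ccl5 (0.72). They rest on 546 and 204 counts over the 16 libraries, against 9609 for Ccl4 and 10402 for Ccl5. Heatr9 and Taf15, next to Ccl5, were 0.82 ± 0.42 (adjusted p = 0.188) and 0.13 ± 0.29 (adjusted p = 0.782). At day 10 the 2 called higher in the window were no members, Ccl6 (2.67 ± 0.83, adjusted p = 0.0399) and the unnamed transcript E230016K23Rik (2.59 ± 0.73, adjusted p = 0.0289). Ccl6 (chr11:83587882-83593087) lies inside the annotated span of E230016K23Rik (chr11:83582056-83623693), and these libraries do not mark strand. With the replicate numbers as pairs neither passed, Ccl6 at 1.95 (adjusted p = 0.136) and E230016K23Rik at 2.65 (adjusted p = 0.0745), and E230016K23Rik was also lost without any 1 of 6 libraries.

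**Figure D4:**
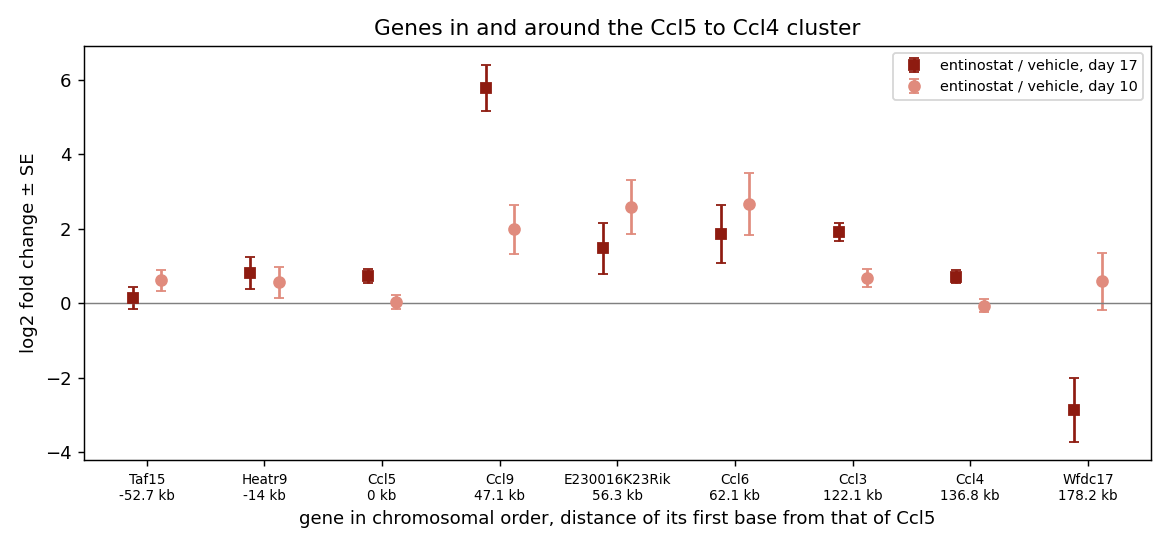
Log2 fold change with SE of entinostat over vehicle for the 9 tested genes in and around the Ccl5 to Ccl4 cluster, in chromosomal order with the distance from Ccl5 in kb; squares are day 17 and circles day 10. Ccl9 at 5.78 stands above its neighbours at day 17, and Wfdc17 at -2.87 is the 1 gene below 0 past the threshold.

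Of the other 30 chemokines in the list, 18 passed the filter on low counts. At day 17 edgeR called 0 higher (3 at an unadjusted p under 0.05, 0 with DESeq2, 3 with limma-voom) and 1 lower, Cxcl10, the interferon-induced ligand of Cxcr3. It measured 3.54, 5.39, 9.95 and 4.75 CPM with entinostat, against 25.6, 30.2, 36.3 and 28.1 CPM with vehicle, with no overlap and a difference of -2.52 ± 0.48 on the log2 scale (SE; edgeR adjusted p = 0.00135; 0.111 with cyclic loess). At day 10 it was -1.35 ± 0.41 (adjusted p = 0.0367), a call that was lost without any 1 of 9 libraries and with the replicate numbers as pairs (-1.43, adjusted p = 0.0932), and within the entinostat groups it was lower at day 17 than at day 10 (-2.14 ± 0.48, adjusted p = 0.00549; 0.0934 with limma-voom and quality weights and 0.197 with cyclic loess). Ccl6 and Ccl24, chemokines of myeloid cells, passed as higher at day 10 (Ccl24 3.38 ± 1.10, adjusted p = 0.0474; 3.83 with the pairs, adjusted p = 0.0839). The Ccl6 value fell to 0.79 (adjusted p = 0.349) without entinostat day 10 replicate 4, which held 201 of its counts against 8 to 13 in the other entinostat libraries of that day, and its call was lost without any 1 of 5 libraries in all. For Ccl24, vehicle day 10 had counts in only 1 library, and its call was lost without any 1 of 13 libraries. In entinostat over time edgeR called 0 higher (3 at an unadjusted p under 0.05, 2 with DESeq2, 8 with limma-voom) and 1 lower, Cxcl10 (1 with DESeq2, 0 with limma-voom). With edgeR 0 of the 18 passed in vehicle over time (3 at an unadjusted p under 0.05, 1 with DESeq2, 3 with limma-voom) and 0 in the difference of effects (0 at an unadjusted p under 0.05, 0 with DESeq2 and 0 with limma-voom).

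Of the 7 receptors that these chemokines bind, 6 were tested and Ackr2, a scavenger of CC chemokines, was too sparse. Ccr8, the receptor of Ccl1, was lower with entinostat at day 17: 31.5, 26.7, 13.3 and 18.0 CPM with entinostat, against 104, 46.1, 69.5 and 63.8 CPM with vehicle. The libraries did not overlap, and the log2 fold change was -1.60 ± 0.36 (SE, edgeR adjusted p = 0.00524; 0.0628 with the library total as a covariate and 0.0576 with cyclic loess). At day 10 it was -0.11 ± 0.35 (adjusted p = 0.837). Ccr1, the receptor of Ccl9 and Ccl3, was 1.14 ± 0.63 (adjusted p = 0.217) at day 17 and 1.79 ± 0.69 (adjusted p = 0.0821) at day 10 under entinostat. In vehicle over time it was 2.40 ± 0.69 higher (adjusted p = 0.0490), a call lost without any 1 of 12 libraries. Ccr3 was lower in entinostat day 17 than in entinostat day 10 libraries (-2.39 ± 0.62, adjusted p = 0.0145), on 0 to 27 counts per library at day 17 and 41 to 175 at day 10, and it was -1.78 (adjusted p = 0.0656) with the library total as a covariate. Xcr1, the receptor of Xcl1, was -0.60 ± 0.27 (adjusted p = 0.122) at day 17 and -0.68 ± 0.26 (adjusted p = 0.0852) at day 10, and Ccrl2, an atypical receptor, was -0.13 ± 0.34 at day 17 (adjusted p = 0.813) and 0.00 ± 0.33 at day 10 (adjusted p = 0.997).

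For each chemokine the genes of nearest profile over the 16 libraries were found. The measure was the root mean square (RMS) difference of log2 CPM after each gene's own mean was taken off. Libraries, depth and groups are shared by all genes. Group levels given for the nearest genes follow in part from this choice and are description only. Among the members, Ccl4 and Ccl5 were closest to each other (RMS 0.21). Nearest to Ccl5 were Actg1 (RMS 0.10), a cytoskeletal actin, H2-Q1 (0.12), a class I-like histocompatibility gene whose reads may be shared with related H2 genes, and Ubb (0.13), a polyubiquitin gene. Ccl4 was nearest to Id2 (0.14), a transcriptional regulator of effector CD8 cells, Ctsd (0.16), a lysosomal protease, and Nkg7 (0.17), a protein of cytotoxic granules. For Ccl3 the nearest were Lta (0.45), the lymphotoxin alpha gene, Havcr2 (0.46), which encodes Tim-3, and Prf1 (0.47), which encodes perforin. Havcr2 averaged 260 CPM with entinostat and 41.6 CPM with vehicle at day 17, and Prf1 567 CPM with entinostat and 147 CPM with vehicle.

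For Ccl9 the closest were Gzmd (1.68), Fcrl6 (1.69), an Fc receptor-like gene, and Gzmc (1.72), set beside a spread of Ccl9 itself of 2.73. As RMS grows with a gene's own spread, the nearest gene is also given as its RMS over that spread: 0.270 for Ccl5, 0.376 for Ccl4, 0.563 for Ccl3, 0.614 for Ccl9, 0.668 for Ccl1 and 0.687 for Xcl1. Gzmd and Gzmc are granzymes, proteases of cytotoxic granules, from a family of near-identical genes whose reads can be split or lost between copies. Mean levels were 68.0 CPM with entinostat and 4.70 CPM with vehicle for Gzmd, 72.9 CPM with entinostat and 6.33 CPM with vehicle for Fcrl6, and 275 CPM with entinostat and 24.6 CPM with vehicle for Gzmc at day 17. At day 10 Gzmd averaged 0.751 CPM with entinostat and 0 CPM with vehicle. It thus reached the mean of 16 CPM asked of these genes only through entinostat day 17. Xcl1 was nearest to Uxt (0.26), Gpx4 (0.27) and Atg10 (0.27), and Ccl1 to Wisp1 (1.49), Nrn1 (1.56) and Penk (1.74), a precursor of enkephalins. Penk averaged 14.6 CPM with entinostat and 112 CPM with vehicle at day 17, Nrn1 37.9 CPM with entinostat and 80.6 CPM with vehicle, and Wisp1 25.95 CPM with entinostat and 33.8 CPM with vehicle.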

How the data were processed

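Libraries were made with SMART-seq v4 cDNA and Nextera XT tagmentation, per the labels' protocols, which mark neither strand nor single molecules. The deposited values are whole-number counts per gene of exon reads, not scaled, for 16 libraries, one table for all. STAR and the mm10 build (GRCm38) are named in the submitters' processing notes, while the sources used here name neither the counting program nor any removal of duplicates. Totals were 554593 to 6975904 counts; the precision of a value goes with the gene's own count, which for abundant transcripts did not follow the total, and copies made by PCR could not be told apart.

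Genes were kept by filterByExpr at a minimum count of 10 (17414 genes) and tested with edgeR 4.0.16 in R 4.3.3 by the quasi-likelihood test on all 16 libraries, with TMM scaling, a mean per group and 12 residual degrees of freedom; the common biological coefficient of variation was 0.38. P-values were adjusted by Benjamini-Hochberg over all tested genes in each comparison, with a threshold of 0.05; unless another test is named, adjusted p-values are from edgeR. DESeq2 1.42.0, limma-voom 3.58.1 and other scalings, filters and covariates were alternatives. The scripts were tested on simulated data. Positions and transcript lengths come from GENCODE for GRCm38, matched by gene symbol. By Entrez identifier, 23968 of 24028 genes were found in a RefSeq gene list, which supplied 27 symbols.

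Groups and replicate numbers came from the labels. On the 9772 genes of at least 16 CPM, deviations of equally numbered libraries at day 10 correlated at 0.259, 0.260, 0.240 and 0.270. The main fit took no pairs, and a fit with the numbers as pairs was an alternative. Pairs at day 10 rest on these values, since no label states them. There 3 of 4 libraries matched their own number best, and over all tested genes the correlations were 0.0329 to 0.180. In no other comparison were all 4 over 0.1. Within groups, every 2 libraries differed by more than counting noise (chi-square per degree of freedom at least 3.28).

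The 6 chemokines and the lists of receptors, other chemokines and cell markers were chosen with earlier results of these data known. Named in addition by rule were up to 4 other chemokines of smallest p past the threshold in each comparison, Cd8a and Cd3e, and for each chemokine the 3 genes of nearest profile whose mean was 16 CPM or more (log2 CPM with a prior count of 2, without receptor segments and unnamed models). The genes next to the cluster and Cd68 were named after their values were seen. Of the receptors, 1 is not reported here.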

Additional observations from a re-analysis of the deposited data

Results flagged for a closer look

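In 3 of the 24 combinations of chemokine and group, 1 library stood apart from the other 3 by Dixon's test, which chance alone does in about 1 of 20. Ccl5 in entinostat day 17 replicate 3 was at 410 CPM, against 185 to 217 CPM in the other 3; this is the library of 554593 counts, and its Actb count, 1618, was the lowest. Ccl1 in vehicle day 10 replicate 2 was at 59.9 CPM, against 0.293 to 6.42 CPM in the other 3, and the day 10 difference of Ccl1 rests on it. Ccl4 in vehicle day 10 replicate 4 was at 145 CPM, slightly below the 167 to 171 CPM of the others.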

How the results depend on the processing

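The day 17 increases of Ccl9 and Ccl3 stayed past the threshold under all 28 alternatives, and those of Ccl4 and Ccl5 under 27 each. Genes past the threshold at day 10 (2534) became 1568 with T cell marker counts as library size, 1332 at a minimum count of 50, 6746 with voom and quality weights, 770 with voom and cyclic loess, 1458 with only the groups compared, 1525 with receptor reads as a covariate and 1160 with the replicate block, and 910 to 4151 without 1 library. Members past the threshold at day 10 (1) became 3 with library size alone or T cell marker counts, 2 with a minimum count of 50 or DESeq2, 0 with voom and quality weights, only the groups compared or the replicate block, and 0 to 2 without 1 library. At day 17, all genes past the threshold (3190) became 4899 with voom and quality weights, 1643 with the library total as a covariate (members 2 in place of 4) and 1946 to 3658 without 1 library (members 4 to 4). In vehicle over time all genes (961) became 490 with library size alone, 276 with T cell marker counts, 2158 with DESeq2, 2804 and 216 with voom and quality weights or cyclic loess, 636 with only the groups compared, 592 with the replicate block, 1826 with the library total (members 1) and 212 to 2699 without 1 library (members 0 to 0). In entinostat over time all genes (2393) became 3934 with voom and quality weights and 1748 to 2826 without 1 library (members 1 to 4). For the difference of effects all genes (82) became 130 with RLE, 144 with library size alone, 518 with T cell marker counts, 34 without a filter, 285 at a minimum count of 50, 563 with DESeq2 (members 3), 244 and 138 with voom and quality weights or cyclic loess, 34 with the replicate block, 187 with receptor reads and 14 to 103 without 1 library (members 0 to 1). Calls of the members, receptors, other chemokines, Wfdc17, E230016K23Rik, Cd8a and Cd3e were followed through the alternatives. Those of other cell markers, Fcer1a and Kit among them, were not. Apart from Ccl1, Ccl6, Ccl24, Cxcl10 and E230016K23Rik at day 10, Ccr1 in vehicle over time and Cd8a in entinostat over time, the replicate block ended no followed call of a gene named with its call. The causes of these moves were not tested, other than that fewer libraries or genes enter some fits. Ccl1 did not pass the filter when only the 2 day 10 or only the 2 entinostat groups were fitted.

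Signs turned only for members that did not pass. Ccl4 at day 10 (-0.06) was 0.10 with library size alone, 0.11 with T cell marker counts, 0.065 at a minimum count of 50, 0.16 with cyclic loess, 0.038 with only the groups compared and -0.16 to 0.034 without 1 library. Ccl5 at day 10 (0.02) was -0.15 with receptor reads, -0.029 with the library total and -0.082 to 0.13 without 1 library, and in entinostat over time (0.35) it was -0.033 with the library total. Xcl1 at day 17 (-0.19) was -0.36 to 0.039 without 1 library, and its difference of effects (0.10) was -0.38 with T cell marker counts, -0.15 with the library total and -0.094 to 0.30 without 1 library. In vehicle over time Ccl4 (-0.10) was 0.037 with library size alone, 0.18 with T cell marker counts and 0.091 with cyclic loess, and Ccl9 (0.34) was -0.18 with cyclic loess and -0.73 to 1.33 without 1 library. Depth limits Ccl1 and, in vehicle libraries, Ccl9, whose values rest on a few counts.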
